A study of Rattus norvegicus with 30 samples.

Results

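The genes of 4 neuropeptides that mark classes of cortical interneurons, somatostatin (Sst), neuropeptide Y (Npy), vasoactive intestinal peptide (Vip) and cholecystokinin (Cck), were followed in the rat brain after traumatic brain injury (TBI). They were chosen by Ensembl identifier, ENSRNOG00000001837 for Sst, ENSRNOG00000046449 for Npy, ENSRNOG00000018808 for Vip and ENSRNOG00000019321 for Cck, and are 4 of the 26404 genes in the count tables. All 4 passed the filter on low counts in each brain area, among 17185 genes tested in the cortex, 16605 in the thalamus and 16963 in the hippocampus. Adult male Sprague-Dawley rats received lateral fluid percussion injury, a pressure pulse of saline onto the intact dura through an opening in the skull over the left parietal lobe. Sham-operated animals received the same anaesthesia and surgery without the pulse. At 3 months, poly-A RNA was sequenced from the perilesional cortex, the ipsilateral thalamus and the dorsal hippocampus of 5 sham-operated rats (rats 1 to 5) and 5 rats with TBI (rats 6 to 10), so that the same 10 animals gave 30 libraries. The tissue labelled dorsal hippocampus was dissected as the dentate gyrus with CA3c-b. The comparisons asked whether the mRNA of each peptide differed at this late time after injury, and whether the difference depended on the brain area.

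Neuropeptides are stored in dense-core vesicles and released during strong firing, where they act on G protein-coupled receptors and modulate transmission by GABA and glutamate. In the neocortex, somatostatin marks inhibitory neurons that contact the dendrites of principal cells, many of which also make neuropeptide Y, and vasoactive intestinal peptide marks inhibitory neurons that mostly contact other interneurons. Cholecystokinin marks a class of basket cells, but its mRNA is also made by many excitatory cells of the cortex and, in the rat, by thalamic projection neurons. Somatostatin and neuropeptide Y are found together in interneurons of the hilus of the dentate gyrus, and somatostatin is also made in the reticular nucleus of the thalamus. In bulk tissue, fewer cells of a type and less mRNA per cell cannot be told apart.

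The genes of Sst and Npy were both lower in the injured cortex and are shown here with the gene of Vip by the sequence around their starts, because a binding site of the activity-dependent factor CREB is a textbook element of the somatostatin and vasoactive intestinal peptide promoters. The sequences come from RefSeq on build GRCr8 and hold the 250 bases before the annotated start and the first 30 bases from it, on the plus strand. They were found for 3 of the 4 genes. Capitals mark the letters TGACGTCA in Sst and TGACGTC in Vip, the longest of the CREB motifs searched that each window holds.
Sst, chr11:90461296-90461575: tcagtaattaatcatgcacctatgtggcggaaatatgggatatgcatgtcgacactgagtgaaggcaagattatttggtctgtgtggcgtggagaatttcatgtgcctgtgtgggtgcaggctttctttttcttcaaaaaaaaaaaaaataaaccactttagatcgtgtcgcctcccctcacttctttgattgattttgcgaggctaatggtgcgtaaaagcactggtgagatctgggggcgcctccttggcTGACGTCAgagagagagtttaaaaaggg
Npy, chr4:80211861-80212140: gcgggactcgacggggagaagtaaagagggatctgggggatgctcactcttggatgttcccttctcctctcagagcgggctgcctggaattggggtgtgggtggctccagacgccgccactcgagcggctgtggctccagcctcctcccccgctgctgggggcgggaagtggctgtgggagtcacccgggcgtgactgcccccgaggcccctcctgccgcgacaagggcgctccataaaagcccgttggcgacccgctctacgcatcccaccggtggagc
Vip, chr1:44470230-44470509: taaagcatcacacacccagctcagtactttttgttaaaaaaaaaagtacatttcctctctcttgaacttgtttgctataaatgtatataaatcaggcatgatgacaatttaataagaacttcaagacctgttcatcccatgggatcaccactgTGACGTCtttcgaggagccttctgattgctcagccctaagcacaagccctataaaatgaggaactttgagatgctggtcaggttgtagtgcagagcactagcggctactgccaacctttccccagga
The Sst window held the palindrome TGACGTCA at bases 3 to 10 from the annotated start. Where transcription begins in these tissues was not tested. In the Vip window, TGACGTC lay 97 to 91 bases before the start, and the shorter TGACG is part of it. On both strands and over windows of the same length, 1.78% of 33469 promoters held TGACGTCA, 3.11% TGACGTC and 20.2% TGACG. None of these letters was in the Npy window, which was rich in G and C (67.9%, against 44.6% for Sst, 42.1% for Vip and a median of 51.4% over all promoters).

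The libraries held between 21992859 and 31799879 counts. Levels are given in counts per 1000000 counts of the library (CPM) after trimmed mean of M-values (TMM) scaling within a brain area, which sets libraries to a common level for the bulk of genes. Gene lengths on the build of the counts were not used here, so levels were compared between libraries and not between genes. The 10 most counted genes took different shares of the libraries, 20.3% to 29.6% of the counts in sham cortex and 14.1% to 23.8% in TBI cortex. In the hippocampus they took 44.1% and 40.9% in sham rats 4 and 5 and 9.95% to 16.4% in the other 8 libraries. In the thalamus the share was 6.32% to 10.5%. The hippocampal libraries of rats 3 and 8 went against their labels: 5 of 5 genes that separated these rats by at least 3 on the log2 scale in both other areas, and by at least 1 in the hippocampus, had the opposite sign there. Among genes chosen in the same way, 0 did in any other pair of a sham-operated rat and a rat with TBI. Some of those pairs held no such gene, so the check could say nothing there. These were sham rats 2 to 5 with TBI rat 6, and sham rat 3 with TBI rat 10. Others rested on 1 gene. Because of rats 3 and 8, hippocampal comparisons of TBI with sham are also given without their libraries. The study's methods left out a pair of sham hippocampal samples for low alignment and did not name them, and all 5 sham libraries are used here, with values without rats 4 and 5 beside them.

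In the perilesional cortex, Npy and Sst mRNA was lower after TBI. Npy fell by 28.3% and Sst by 18.5%, and both passed the test. Vip and Cck also had lower mean levels but did not pass, so 2 of the 4 genes were downregulated and 0 upregulated, where 25.8% of all cortical genes passed, 11.6% as downregulated and 14.2% as upregulated. The fitted difference was below 0 for all 4 peptides and for 51.7% of all genes.

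Npy encodes a peptide that inhibits glutamate release through its presynaptic receptors. Its cortical level was 61.9, 51, 59.4, 52.6 and 58.2 CPM in sham rats 1 to 5 and 38, 39.7, 37.6, 46 and 41.4 CPM in TBI rats 6 to 10. All TBI libraries lay below all sham libraries, an arrangement found in either direction for 18.1% of the genes tested in the cortex. The means were 56.6 ± 4.66 CPM (SD, n = 5) and 40.6 ± 3.4 CPM (SD, n = 5), a log2 difference of -0.48 (standard error 0.08, 95% interval -0.65 to -0.31, edgeR quasi-likelihood adjusted p = 0.000673). Leaving out single rats kept the log2 fold change between -0.53 and -0.43, and the adjusted p of the same edgeR test did not exceed 0.00305.

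Sst encodes the inhibitory peptide somatostatin. It stood at 107, 92.5, 105, 114 and 95.1 CPM in the sham cortex and at 67.4, 89.1, 93.9, 81.6 and 87.1 CPM after TBI. The groups overlapped by a single library, since TBI rat 8 lay just above sham rat 2 and the other 4 TBI libraries lay below every sham library. Means of 103 ± 8.96 CPM (SD, n = 5) and 83.8 ± 10.2 CPM (SD, n = 5) gave a log2 difference of -0.30 (standard error 0.09, 95% interval -0.49 to -0.10, edgeR quasi-likelihood adjusted p = 0.0304). The call was lost without sham rat 1, 3 or 4 or TBI rat 6 or 9 (adjusted p 0.0604 to 0.106 from edgeR), with the log2 fold change between -0.34 and -0.23 over all 10 rats left out in turn.

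Vip, the peptide of interneurons that inhibit other interneurons, measured 23.1, 28.5, 32, 30.1 and 28 CPM in the sham cortex and 26.7, 15.9, 20.9, 25.6 and 23.6 CPM after TBI. Sham rat 1 was the lowest of its group and lay among the TBI libraries, and TBI rat 7 was the lowest of all 10. The means were 28.3 ± 3.31 CPM (SD, n = 5) and 22.5 ± 4.33 CPM (SD, n = 5), and the log2 fold change of -0.33 (standard error 0.13, 95% interval -0.60 to -0.06) did not pass (edgeR quasi-likelihood adjusted p = 0.0721). It passed without sham rat 1 (-0.38, adjusted p = 0.0387) or TBI rat 6 (-0.40, adjusted p = 0.0424) in the same edgeR test, and in DESeq2 (-0.34, adjusted p = 0.0474).

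Cck, which pyramidal cells of the cortex also transcribe, gave 397, 324, 319, 339 and 321 CPM in sham-operated rats and 217, 330, 319, 268 and 286 CPM in rats with TBI. TBI rats 7 and 8 were within the range of the sham libraries, TBI rats 6, 9 and 10 were below it, and sham rat 1 stood above the other 4. The means of 340 ± 33 CPM (SD, n = 5) and 284 ± 44.9 CPM (SD, n = 5) differed by -0.26 on the log2 scale (standard error 0.11, 95% interval -0.49 to -0.03, edgeR quasi-likelihood adjusted p = 0.0908). DESeq2 called Cck without TBI rat 7 (-0.33, adjusted p = 0.0253) and not with all 10 rats (-0.27, adjusted p = 0.0729).

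These cortical differences depend on the scaling. When libraries were scaled by their total counts alone, the median log2 fold change of all genes moved from -0.01 to 0.21 and 94.1% of the called genes were upregulated, against 54.9% with TMM. On that scale the log2 fold change was -0.26 for Npy (adjusted p = 0.134 from edgeR), -0.09 for Sst (adjusted p = 0.541), -0.10 for Vip (adjusted p = 0.734) and -0.05 for Cck (adjusted p = 0.681), below 0 and below the median of all genes for each, with none past the threshold. The groups then overlapped for Npy, at 47.4 to 61.4 CPM in sham and 35.7 to 52.2 CPM in TBI libraries. The part of the most counted genes in these values was not tested beyond a fit with their share as a covariate, which left Npy at -0.50 (adjusted p = 0.00255 from edgeR), Sst at -0.18 (adjusted p = 0.188) and Cck at -0.05 (adjusted p = 0.699), and put Vip at -0.61 (adjusted p = 0.000793). The share went partly with treatment, at 20.3% to 29.6% in sham and 14.1% to 23.8% in TBI libraries. This fit therefore cannot cleanly separate the share from the injury.

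**Figure D1:**
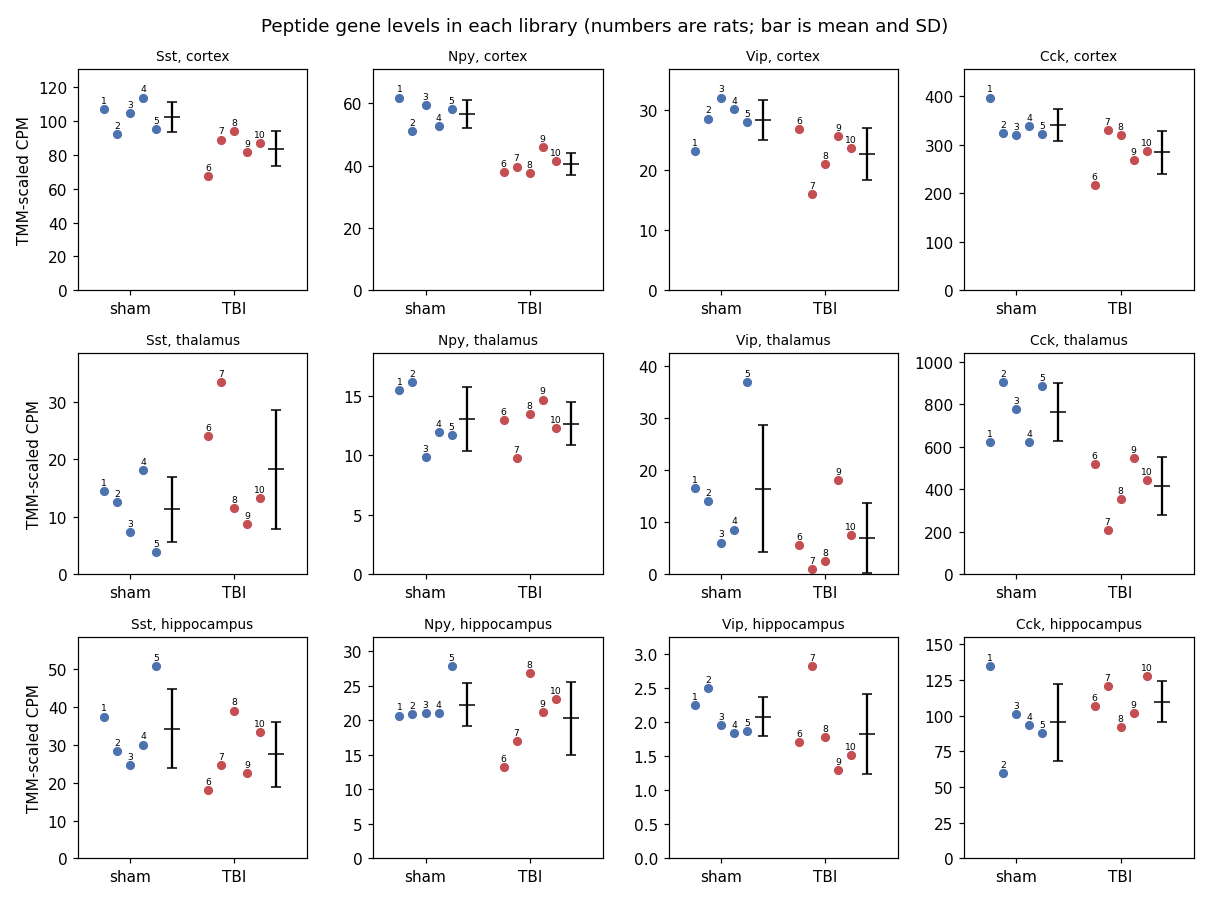
Level of each peptide gene in every library, in TMM-scaled CPM on linear axes from 0, with 1 panel per gene (columns) and brain area (rows). Points are rats 1 to 5 (sham) and 6 to 10 (TBI), numbered, and bars are the mean and SD. The groups are apart for Npy in the cortex and Cck in the thalamus and overlap in the other 10 panels.

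In the thalamus, Cck was the peptide gene that passed the test, and it fell by 45.7% after TBI. Of the 4 genes, 1 was downregulated and 0 upregulated, where 5.62% of the genes tested in the thalamus passed, 1.85% as downregulated and 3.77% as upregulated. The 934 genes behind this share became 0 without rat 3, 5, 7 or 8 and 2421 without rat 6. Sst and Vip varied widely between rats of the same group, and Npy had nearly equal means.

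Cholecystokinin in the rat thalamus comes largely from projection neurons, so Cck is there no marker of interneurons. Its level was 623, 905, 777, 621 and 886 CPM in sham rats 1 to 5 and 519, 208, 353, 547 and 442 CPM in TBI rats 6 to 10. Every TBI library lay below every sham library, as the groups were apart for 5.4% of the genes tested in the thalamus. The means of 762 ± 137 CPM (SD, n = 5) and 414 ± 138 CPM (SD, n = 5) gave a log2 difference of -0.88 (standard error 0.22, 95% interval -1.36 to -0.40, edgeR quasi-likelihood adjusted p = 0.039). The fall was nearly the same after scaling by total counts, at -0.86 (adjusted p = 0.0375 from edgeR), where the median of all genes moved to 0.02. Without rat 2, 3, 4, 5, 7, 8 or 10 the call was lost (adjusted p 0.0527 to 0.11 from edgeR), although the log2 fold change stayed between -1.0 and -0.71. DESeq2 kept the call with each rat left out (adjusted p 0.000821 to 0.0251). With the share of the 10 most counted genes as a covariate, Cck was at -1.0 (adjusted p = 0.127 from edgeR), and 0 of all thalamic genes were called. That share also went partly with treatment, at 6.32% to 9.13% in sham and 7.53% to 10.5% in TBI libraries.

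Sst in the thalamus was 14.5, 12.5, 7.31, 18.2 and 3.93 CPM in sham-operated rats and 24.1, 33.5, 11.5, 8.75 and 13.3 CPM after TBI. TBI rats 6 and 7 were above all sham libraries, and the other 3 lay within the sham range. The means were 11.3 ± 5.71 CPM (SD, n = 5) and 18.2 ± 10.3 CPM (SD, n = 5), with a log2 fold change of 0.69 that did not pass (standard error 0.42, 95% interval -0.21 to 1.59, edgeR quasi-likelihood adjusted p = 0.343). It was 0.35 without TBI rat 7 and between 0.47 and 0.93 without any other single rat. The biological coefficient of variation that edgeR fitted, the spread between rats beyond counting error, was 0.454, above that of 97.9% of thalamic genes (median 0.197).

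Vip was still more variable in the thalamus, with 16.5, 14, 6.08, 8.56 and 36.9 CPM in sham-operated rats and 5.6, 1.04, 2.57, 18.1 and 7.5 CPM after TBI. Sham rat 5 and TBI rat 7 differed 35.5-fold, from 882 counts to 34 counts, and TBI rat 9 lay above 4 of the 5 sham libraries. The means of 16.4 ± 12.2 CPM (SD, n = 5) and 6.97 ± 6.74 CPM (SD, n = 5) gave a log2 fold change of -1.25 with a wide interval (standard error 0.67, 95% interval -2.72 to 0.22, edgeR quasi-likelihood adjusted p = 0.289). It was -0.71 without sham rat 5 and -1.98 without TBI rat 9 (adjusted p = 0.111 from edgeR), and DESeq2 called Vip without TBI rat 9 (-1.99, adjusted p = 0.0463). Its coefficient of variation, 0.707, exceeded that of 99.5% of the genes.

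Npy had thalamic levels of 15.5, 16.2, 9.86, 12 and 11.7 CPM in sham-operated rats and 13, 9.81, 13.5, 14.7 and 12.3 CPM after TBI. Sham rats 1 and 2 lay above every TBI library, and the other libraries of the groups overlapped. At means of 13.1 ± 2.69 CPM (SD, n = 5) and 12.7 ± 1.82 CPM (SD, n = 5), the log2 fold change was -0.05 (standard error 0.16, 95% interval -0.40 to 0.30, edgeR quasi-likelihood adjusted p = 0.888). Set against Cck within the same library, a ratio of counts that no scaling touches, Npy came to 0.0127 to 0.0249 counts per Cck count in sham and 0.025 to 0.0471 in TBI libraries, ranges that meet without overlap. The same held for 40.0% of the thalamic genes set against Cck, which itself was lower. Sst came to 0.00444 to 0.0294 and 0.016 to 0.161 counts per Cck count and Vip to 0.00782 to 0.0416 and 0.00499 to 0.0331, and these ranges overlapped. In the cortex the same ratio overlapped, at 0.155 to 0.187 and 0.118 to 0.175.

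The thalamic spread of Sst and Vip ran in opposite directions in the most extreme animals. Sham rat 5 had the lowest Sst and the highest Vip of the 10 thalamic libraries, and TBI rat 7 had the highest Sst and the lowest Vip. The ratio of Sst to Vip counts was 0.107 in sham rat 5 and 32.2 in TBI rat 7, a 301-fold range over the thalamic libraries, against a 2.22-fold range in the cortex and 3.12-fold in the hippocampus. After the group means were removed from log2 CPM, Sst and Vip had Pearson's r = -0.62 over the 10 rats (exact permutation within groups, two-sided p = 0.0719) and Spearman's rho = -0.53 (exact permutation p = 0.151), and r = -0.29 without rats 5 and 7. Vip and Cck in the thalamus had r = 0.79 (exact permutation p = 0.0213) and rho = 0.67 (exact permutation p = 0.0705), and r = 0.48 without rats 7 and 9. The values without the named rats kept the group means of all 10 rats, so an offset between the groups can enter them. Among 18 such relations between the peptides over the 3 areas, none passed after adjustment (adjusted exact permutation p of these relations 0.221 and 0.0958 for r). Markers that could place each dissection within the thalamus were not analysed here.

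**Figure D2:**
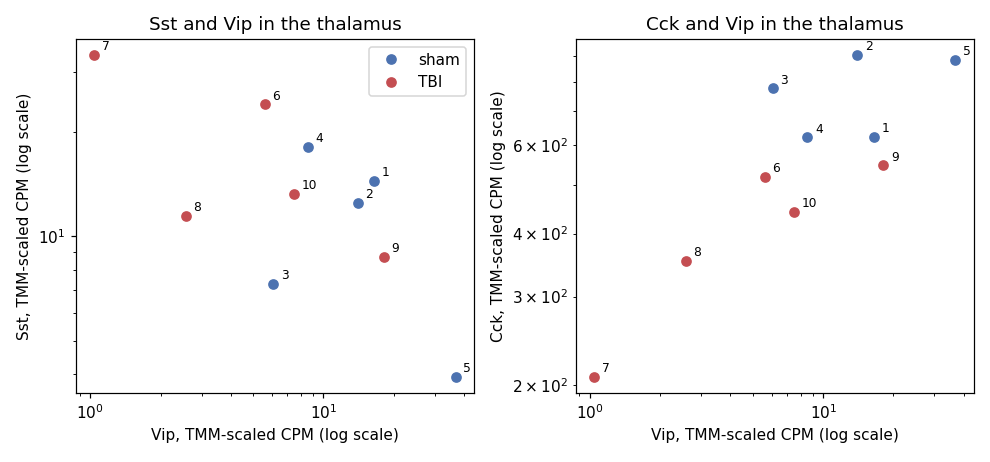
Sst against Vip (left) and Cck against Vip (right) in the thalamus, in TMM-scaled CPM with log scales on all axes, and 1 numbered point per rat. TBI rat 7 holds the lowest Vip, at 1.04 CPM, with the highest Sst, at 33.5 CPM, and the lowest Cck, at 208 CPM, and sham rat 5 holds the highest Vip, at 36.9 CPM.

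In the hippocampus none of the 4 peptide genes passed the test, as was so for all genes: 0% of the 16963 tested passed edgeR's quasi-likelihood test, 1432 had an unadjusted p under 0.05, and DESeq2 called 41. edgeR called 263 genes without rats 3 and 8 and 225 after scaling by total counts, with none of the peptide genes among them. The groups were apart for none of the peptide genes and for 0.984% of all genes. Sst, Npy and Vip had slightly lower means after TBI and Cck a slightly higher one, each within the spread between rats.

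Sst, which together with Npy marks hilar interneurons, was at 37.5, 28.3, 24.7, 30.1 and 50.9 CPM in sham-operated rats and 18, 24.7, 39.1, 22.5 and 33.5 CPM after TBI. Sham rat 5 was highest, and TBI rat 8 was highest of its group. The means of 34.3 ± 10.4 CPM (SD, n = 5) and 27.6 ± 8.54 CPM (SD, n = 5) differed by -0.31 on the log2 scale (standard error 0.25, 95% interval -0.88 to 0.26, edgeR quasi-likelihood adjusted p = 0.789). Without rats 3 and 8, whose libraries went against their labels, the log2 fold change was -0.57 (adjusted p = 0.337 from edgeR), and without rats 4 and 5 it was -0.13 (adjusted p = 0.946). With 1 rat left out it lay between -0.47 (TBI rat 8) and -0.13 (sham rat 5).

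Npy in the sham hippocampus was at 20.7, 20.9, 21, 21 and 27.9 CPM after TMM, and at 21.9, 23.6, 23.2, 11.9 and 17 CPM without it, where rats 4 and 5 were the lowest. On the TMM scale it was at 13.3, 17, 26.9, 21.2 and 23.1 CPM after TBI. TBI rats 6 and 7 were below all sham libraries, while TBI rats 8, 9 and 10 were within the sham range. The means were 22.3 ± 3.13 CPM (SD, n = 5) and 20.3 ± 5.3 CPM (SD, n = 5), which gave a log2 difference of -0.13 (95% interval -0.48 to 0.22, edgeR quasi-likelihood adjusted p = 0.858). It was -0.28 without rats 3 and 8 (adjusted p = 0.542 from edgeR) and -0.04 without rats 4 and 5 (adjusted p = 0.985). Leaving out single rats moved it between -0.26 (without TBI rat 8) and -0.01 (without TBI rat 6).

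Vip was scarce in the hippocampus, with 26 to 103 counts per library. It measured 2.25, 2.49, 1.95, 1.83 and 1.86 CPM in sham-operated rats and 1.71, 2.82, 1.78, 1.3 and 1.52 CPM after TBI, and TBI rat 7 was the highest of all. The log2 fold change was -0.19 (95% interval -0.62 to 0.24, edgeR quasi-likelihood adjusted p = 0.836), -0.21 without rats 3 and 8 (adjusted p = 0.777 from edgeR) and -0.28 without rats 4 and 5 (adjusted p = 0.879). Its range over single rats left out was -0.41 (without TBI rat 7) to -0.10 (without TBI rat 9).

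Cck, made in the hippocampus by basket cells and by some excitatory cells, was at 135, 60.1, 101, 93.8 and 87.6 CPM in sham-operated rats and 107, 121, 91.8, 102 and 128 CPM after TBI. Sham rats 1 and 2 were the highest and the lowest of all 10 libraries. The log2 fold change of 0.21 (95% interval -0.18 to 0.59, edgeR quasi-likelihood adjusted p = 0.80) was 0.28 without rats 3 and 8 (adjusted p = 0.64 from edgeR) and 0.16 without rats 4 and 5 (adjusted p = 0.916). It was 0.08 without sham rat 2 and 0.37 without sham rat 1, the ends of its range over single rats left out. Scaling by total counts moved the median of all hippocampal genes from -0.01 to 0.38 and put Sst at 0.14, Npy at 0.28, Vip at 0.18 and Cck at 0.60, which reversed the signs of Sst, Npy and Vip. DESeq2 and RLE scaling kept them.

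Over the rats, hippocampal Sst and Npy had r = 0.84 (exact permutation p = 0.00451) and rho = 0.60 (exact permutation p = 0.0988) after the group means were removed. Without rats 5 and 8, r was 0.67 on the group means of all rats. With group means taken from the kept rats, r was 0.81 without rats 3 and 8 and 0.80 without rats 4 and 5. In the cortex, where many interneurons make both peptides, the same pair had r = 0.11 (exact permutation p = 0.777) and rho = -0.11 (exact permutation p = 0.769), and r = -0.69 without rats 2 and 6. Cortical Sst and Cck had r = 0.82 (exact permutation p = 0.0132) and rho = 0.75 (exact permutation p = 0.0263), and r = 0.60 without rats 2 and 6. Cortical Vip and Cck had r = -0.84 (exact permutation p = 0.00882) and rho = -0.85 (exact permutation p = 0.0066), and r = -0.76 without rats 1 and 7. The cortical values without the named rats also kept the group means of all rats. After adjustment over the 18 relations the smallest p for r was 0.0792 (exact permutation), so none passed, and the libraries of an area share their scaling.

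**Figure D3:**
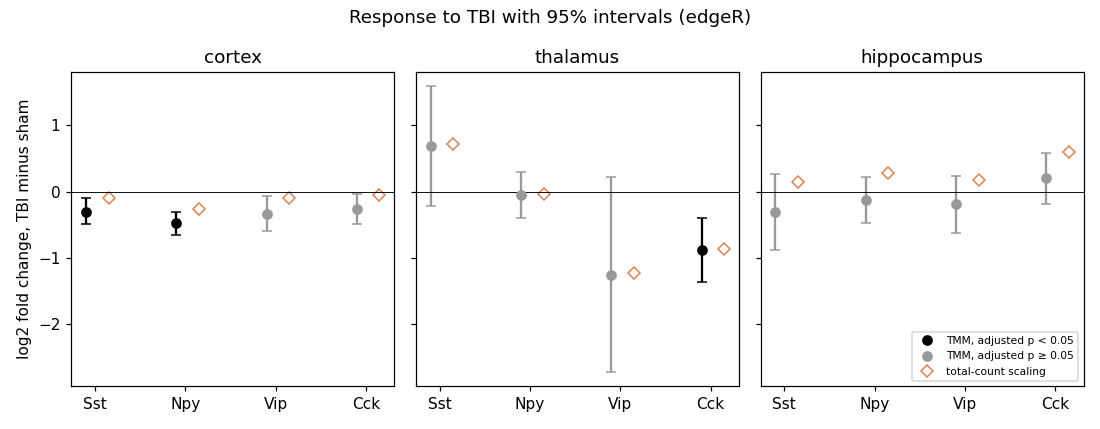
Log2 fold change of each peptide gene, TBI minus sham, with 95% intervals from edgeR after TMM scaling (filled circles, black where the adjusted p is under 0.05) and the value after scaling by total counts (open diamonds), by brain area. Sst and Npy in the cortex and Cck in the thalamus are black, and the diamonds lie above the circles in the cortex and hippocampus and close to them in the thalamus.

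Whether the response to TBI differed between areas was tested for each gene as an interaction over the 30 libraries. None of the 12 tests passed, where 0.582%, 0.449% and 0.322% of 18040 genes passed for cortex against thalamus, cortex against hippocampus and thalamus against hippocampus. These shares rest on 105, 81 and 58 genes, which became 65 to 136, 14 to 116 and 0 to 1402 with a rat left out. The response of Cck in the hippocampus was higher than that in the thalamus by 1.12 on the log2 scale (standard error 0.28, 95% interval 0.56 to 1.68, edgeR quasi-likelihood adjusted p = 0.0695). With the rat as a block this difference was 1.17 (adjusted p = 0.117 from edgeR). It passed without rat 1 (1.35, adjusted p = 0.037) or rat 6 (1.23, adjusted p = 0.00999) and after scaling by total counts (1.46, adjusted p = 0.0176), and not without the hippocampal libraries of rats 3 and 8 (1.20, adjusted p = 0.117) or of rats 4 and 5 (1.07, adjusted p = 0.162). The response of Cck in the thalamus lay 0.63 below that in the cortex, written as -0.63 on the log2 scale (95% interval -1.18 to -0.07, adjusted p = 0.405 from the same edgeR test). It was -0.39 without rat 7 (adjusted p = 0.753 from edgeR) and -0.81 without rat 6 (adjusted p = 0.224). For Sst the thalamic response lay above the cortical one by 1.0 (95% interval 0.07 to 1.93, adjusted p = 0.436 from edgeR), and for Npy by 0.43 (95% interval 0.01 to 0.85, adjusted p = 0.479). The cortical fall of Npy is thus not shown to differ from its response in the other areas, with a hippocampal response higher by 0.38 (95% interval -0.04 to 0.80, adjusted p = 0.428 from edgeR). Without the hippocampal libraries of rats 3 and 8, or without rat 8, this difference was 0.23, and without those of rats 4 and 5 it was 0.47 (adjusted p = 0.397 from edgeR).

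The peptides had different orders of level over the areas in sham-operated rats, on one TMM scale for the 15 sham libraries. Sst and Npy were highest in the cortex and lowest in the thalamus, Vip was highest in the cortex and lowest in the hippocampus, and Cck was highest in the thalamus. All 12 contrasts between areas passed the test, where 70.8% of 17315 genes passed between cortex and thalamus, 44.4% between cortex and hippocampus and 67.6% between thalamus and hippocampus. The study's text gives another instrument and read length for the thalamic libraries than the labels do, so area and sequencing cannot be told apart in contrasts with the thalamus.

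Sst was at 96.4 ± 8.97 CPM (SD, n = 5) in the cortex, 35.4 ± 10.7 CPM in the hippocampus and 9.18 ± 4.57 CPM in the thalamus, 10.4-fold lower in the thalamus than in the cortex (edgeR quasi-likelihood adjusted p = 2.18e-07). Npy had a narrower gradient, at 53 ± 4.44 CPM (SD, n = 5), 23 ± 3.22 CPM and 10.7 ± 2.25 CPM in the same order, a 4.97-fold difference between cortex and thalamus (adjusted p = 4.05e-11 from edgeR). The hippocampus stood between the other areas for both peptides, 2.73-fold below the cortex for Sst (adjusted p = 0.00111 from edgeR) and 2.31-fold for Npy (adjusted p = 5.7e-07). Without rat 3 the log2 difference of hippocampus from cortex was -1.35 for Sst and -1.17 for Npy, and without the hippocampal libraries of rats 4 and 5 it was -1.64 and -1.31.

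Vip fell off most toward the hippocampus, from 26.5 ± 3.03 CPM (SD, n = 5) in the cortex to 2.14 ± 0.295 CPM, 12.2-fold lower (edgeR quasi-likelihood adjusted p = 5.57e-06). In the thalamus it was at 13.5 ± 10.2 CPM, 1.98-fold below the cortex (adjusted p = 0.0204 from edgeR), and this contrast did not pass without rat 2, 3 or 4 (adjusted p 0.0621 to 0.091). Cck was at 623 ± 123 CPM (SD, n = 5) in the thalamus, 319 ± 33 CPM in the cortex and 98.3 ± 27.6 CPM in the hippocampus. The thalamic level of Cck was 1.96-fold that of the cortex (adjusted p = 5.06e-05 from edgeR) and 6.33-fold that of the hippocampus (adjusted p = 2.53e-10). All contrasts of Vip and Cck with the hippocampus passed without rat 3 and without the hippocampal libraries of rats 4 and 5.

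**Figure D4:**
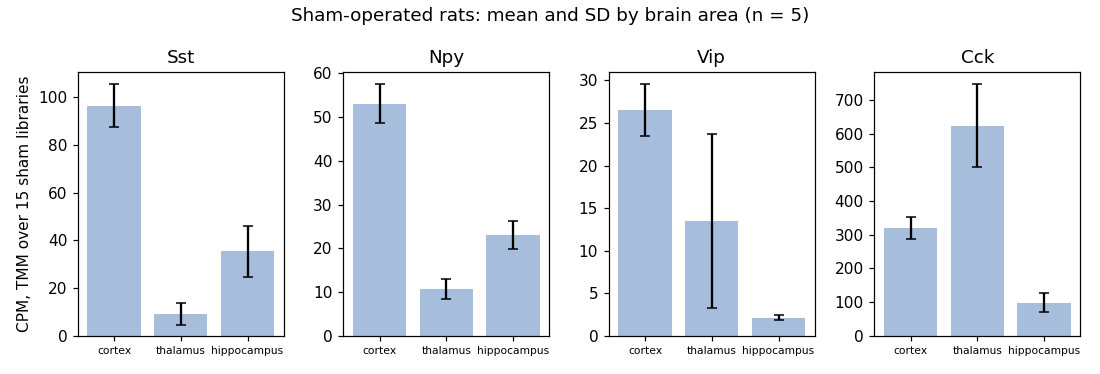
Level of each peptide gene by brain area in the 5 sham-operated rats, in CPM after TMM scaling over the 15 sham libraries, on linear axes from 0 that differ between genes. Bars are means and error bars SDs. Sst, Npy and Vip are highest in the cortex, and Cck is highest in the thalamus, at 623 CPM.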

How the data were processed

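Poly-A RNA of 3 brain areas from 10 rats was measured in 30 libraries. The authors aligned the reads with STAR to Rnor_5.0 and deposited raw counts per Ensembl gene, 1 table per area. The counting tool and the use of strand are not given in the sources used here. Reads from genes that overlap the peptide genes on the other strand can therefore not be set apart. All table columns were matched to samples by name (0 columns of per-sample values were unused).

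Each area was analysed by itself. Genes passed filterByExpr at a minimum count of 10 and a total of 15, TMM factors set the library scale, and edgeR's quasi-likelihood test (robust fit) compared the treatments, with p-values adjusted by the Benjamini-Hochberg method over all genes at a threshold of 0.05 (R 4.3.3, edgeR 4.0.16, limma 3.58.1, DESeq2 1.42.0). Each replicate is a separate animal. For log2 CPM the prior count was 3. The procedures were tested on simulated data. The depth was between 21992859 and 31799879 counts, and each group held 5 rats.

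All areas came from the same animals, which pairs their libraries. Averaged over rats, the correlation of deviations from group means between libraries of a rat was 0.0578 for cortex and thalamus, 0.11 for cortex and hippocampus and 0.0376 for thalamus and hippocampus.

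The peptide genes and lists were chosen with earlier results of these data known. The rule for named genes was the 4 peptide genes with values in every library, Gad1 and Gad2, the peptide receptors, the most changed members of other gene lists, and the genes most like each peptide. Of these, the 4 peptide genes are reported. The tables hold Ensembl identifiers, none of which could be paired with a symbol through the reference table, so the lists, the markers of areas and cell types, the ratio to Gad1 and Gad2 and the genes most like each peptide were not analysed here. The pairing of the 4 symbols with identifiers was given with the gene set.

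Alternatives were DESeq2, RLE scaling, no filter, limma's voom with quality weights, one fit over all areas, the rat as a block, and leaving out single rats, hippocampal rats 3 and 8, or hippocampal rats 4 and 5. Total-count scaling, the share of the 10 most counted genes as a covariate in cortex and thalamus, 1 flow cell in the hippocampus, fits of 2 areas, the hippocampus without rats 3, 4, 5 and 8, DESeq2 with rats left out and hippocampal correlations without doubtful libraries were added after seeing the data.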

Additional observations from a re-analysis of the deposited data

Results flagged for a closer look

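In 24 groups of 5 libraries (each gene, area and treatment), the distance of the highest or lowest library from its neighbour was compared with Dixon's limit. A library was past it in 2 groups, where chance passes about 1 in 20. Npy in the hippocampus of sham rat 5 was 27.9 CPM, with 21.0 CPM in the next library. This library was 1 of 2 in which the 10 most counted genes took the largest shares of the counts (40.9% here), and without TMM scaling it was at 17 CPM, within a sham range of 11.9 to 23.6 CPM. Cck in the cortex of sham rat 1 was 397 CPM, with 339 CPM in the next library, and this library had the largest share of its total in the 10 most counted genes among the cortical libraries (29.6%) and the smallest TMM factor (0.797). Unscaled, sham cortical Cck lay between 301 and 329 CPM.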

How the results depend on the processing

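Of 300 alternative values for TBI against sham in single genes, 263 kept their direction and their side of the threshold. The same held for 129 of 132 values between areas of sham-operated rats and 188 of 204 for the difference in response between areas. Many of the values for TBI against sham belong to results that were not called in the main fit. Of the called results, Npy in the cortex kept both in 26 of 27 alternatives, Sst in the cortex in 18 of 27 and Cck in the thalamus in 19 of 27. Npy in the cortex remained downregulated under DESeq2, RLE scaling, no filter, voom, one fit over all areas and with each rat left out, and lost the call with total-count scaling (-0.26). Sst in the cortex lost it in one fit over all areas (-0.32), with total-count scaling (-0.09) and with the share of the 10 most counted genes as a covariate (-0.18). Cortical Vip passed in DESeq2 (-0.34), voom (-0.38) and with that covariate (-0.61). Thalamic Cck lost the call with the covariate (-1.0). Total-count scaling reversed Sst (0.14), Npy (0.28) and Vip (0.18) in the hippocampus and the difference in response of Npy between thalamus and hippocampus (0.31), and took that of Cck past the threshold (1.46). The cause of these shifts was not tested.

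With each rat left out, edgeR gave -0.34 to -0.23 for Sst in the cortex, -0.40 to -0.23 for Vip in the cortex, -1.0 to -0.71 for Cck and -0.14 to 0.04 for Npy in the thalamus (above 0 without rat 1, at 0.02, rat 2, at 0.04, or rat 7, at 0.03), and -1.55 to -0.75 for Vip between cortex and thalamus of sham-operated rats. The differences in response ranged from -0.17 to 0.09 for Npy (thalamus against hippocampus; above 0 without rat 3, at 0.02, rat 5, at 0.09, or rat 6, at 0.08), from -0.10 to 0.24 for Sst (cortex against hippocampus; below 0 without rat 2, at -0.01, rat 3, at -0.09, rat 4, at -0.05, rat 8, at -0.10, or rat 10, at -0.05), from -0.14 to 0.32 for Vip (cortex against hippocampus; below 0 without rat 7) and from 0.92 to 1.35 for Cck (thalamus against hippocampus). DESeq2 with each rat left out gave -0.35 to -0.23 for Sst, -0.40 to -0.24 for Vip and -0.33 to -0.18 for Cck in the cortex, and -1.99 to -0.70 for Vip and -0.14 to 0.03 for Npy in the thalamus. Of these DESeq2 fits, cortical Cck passed without rat 7 (adjusted p = 0.0253), thalamic Vip without rat 9 (adjusted p = 0.0463) and cortical Vip without rat 1, 6 or 9 (adjusted p 0.0143 to 0.0393), and cortical Sst did not without rat 4 (adjusted p = 0.0602). The difference in response of Sst between cortex and hippocampus was also below 0 without the low-count filter (-0.02) and without the hippocampal libraries of rats 3 and 8 (-0.24), and that of Npy between thalamus and hippocampus was 0.04 without those of rats 4 and 5.

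Counts over all genes moved more. In the thalamus, 934 genes became 1950 with DESeq2, 2671 with voom, 3457 in one fit, 0 with the covariate, 0 to 2421 with a rat left out and 992 to 3237 with a rat left out of DESeq2 (1691, 2449, 1543 and 1714 without rats 1, 2, 4 and 9). In the hippocampus, 0 became 41 with DESeq2, 225 with total-count scaling, 263 without rats 3 and 8, 82 without rats 3, 4, 5 and 8 (added after seeing the data), and 0 to 1 with a rat left out. Between cortex and hippocampus of sham-operated rats, 7686 became 4687 with total-count scaling. For differences in response with the replicate block, 105, 81 and 58 genes became 108 (cortex against thalamus), 49 (cortex against hippocampus) and 31 (thalamus against hippocampus), and the block changed no call of a peptide gene. With total-count scaling they became 61, 12 and 176, and with a rat left out 65 to 136, 14 to 116 and 0 to 1402. For cortex against hippocampus there were 26 without the hippocampal libraries of rats 3 and 8, 36 without those of rats 4 and 5 and 537 in a fit of the 2 areas, and for thalamus against hippocampus 0, 0 and 0, and 18 with no filter on low counts.

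Each group held 5 rats, which limits the precision, and hippocampal Vip rested on 26 to 103 counts per library.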
